A study of Mus musculus with 10 samples.

Results

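The Eph receptors, ephrins, netrins, Slits and their receptors are cell-surface and secreted proteins that steer growing axons. They were followed here as a list of 37 named genes among the 49021 mouse genes that the deposited exon bins gave counts for. The list holds 14 Eph receptors, 8 ephrins, 3 netrins, 6 netrin receptors, 3 Slits and 3 Robo receptors. The members were chosen by name and by system, not by a measured value, and all 37 were found.

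RNA was sequenced from YFP-positive cells sorted by FACS from dissociated mouse spinal cords at e10.5, in 5 control and 5 cdKO samples. Control samples carried Olig2-Cre+/- with the reporter Rosa26R-YFP+/- and the alleles Oc1+/Flox and Oc2+/Flox, that is a wild-type and a floxed allele of Onecut1 (Oc1) and of Onecut2 (Oc2). The cdKO samples carried the same Cre and reporter with Oc1-/Flox and Oc2-/Flox, that is a null and a floxed allele of each. Both groups therefore carried the Cre, the reporter and floxed alleles, so the controls kept 1 unfloxed copy of each gene. Olig2 is transcribed in motor neuron progenitors, and the study describes reporter-positive cells ventral to the motor neurons as well, so the sorted cells were the Olig2-Cre lineage rather than postmitotic motor neurons alone. The titles give e10.5 for every sample, while the description of each further sample carries a higher number. The question of the comparison was which guidance genes differ in level when Oc1 and Oc2 are deleted in this lineage.

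Eph receptors are receptor tyrosine kinases, and their ephrin ligands are themselves anchored to the neighbouring cell, either by a lipid (ephrin-A) or by a membrane-spanning part (ephrin-B). In the limb, spinal motor axons that carry EphA4 are turned away from ephrin-A and grow dorsally. Netrins attract axons through Dcc and Neo1 and repel them through the Unc5 receptors. Slits repel axons through Robo receptors, which keeps motor axons out of the floor plate, and Robo3 is a divergent member known from commissural axons. The Slit genes also carry microRNA genes: miR-218, a microRNA abundant in motor neurons, is encoded by Mir218-1 in an intron of Slit2 and by Mir218-2 in an intron of Slit3. In motor neurons its precursors are known to be transcribed from starts inside the host genes.

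The sequences below are the miR-218 hairpins in introns of Slit2 and Slit3. They lie downstream of exon 6, where the counts stepped up, as described with the Slits. Mature miR-218-5p is the same from both genes and is shown with its seed, bases 2 to 8, in capitals. The hairpins, of 110 bases each (RefSeq, GRCm38.p6), show the mature strands in capitals.
mmu-miR-218-5p: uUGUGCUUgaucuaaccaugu
Mir218-1 hairpin, chr5:48223942-48224051, plus strand: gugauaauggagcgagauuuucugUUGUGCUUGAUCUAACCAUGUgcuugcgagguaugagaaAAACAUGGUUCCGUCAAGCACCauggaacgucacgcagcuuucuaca
Mir218-2 hairpin, chr11:35616816-35616925, plus strand: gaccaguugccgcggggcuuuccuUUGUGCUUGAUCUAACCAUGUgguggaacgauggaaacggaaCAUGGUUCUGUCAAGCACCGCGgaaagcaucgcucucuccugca

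The first exons of the short transcripts that GENCODE M21 annotates inside Slit2 (Slit2-209) and inside Slit3 (Slit3-202) are shown next, since the counts stepped up there. Capitals mark the 72 bases shared with exon 6 of the full-length transcript, and the lower-case bases before them lie in intron 5.
Slit2-209 exon 1, chr5:48182102-48182317, plus strand: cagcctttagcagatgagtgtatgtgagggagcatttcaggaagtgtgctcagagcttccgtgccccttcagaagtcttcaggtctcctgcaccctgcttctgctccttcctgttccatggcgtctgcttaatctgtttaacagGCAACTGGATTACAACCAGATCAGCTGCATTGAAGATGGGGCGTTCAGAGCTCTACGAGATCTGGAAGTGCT
Slit3-202 exon 1, chr11:35544685-35544800, plus strand: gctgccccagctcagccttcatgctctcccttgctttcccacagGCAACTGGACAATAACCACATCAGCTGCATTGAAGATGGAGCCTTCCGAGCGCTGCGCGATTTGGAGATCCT

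In each gene the short transcript starts inside the intron, 144 bases before the shared exon in Slit2 and 44 bases before it in Slit3. Both stretches of intron end in cag, directly before the first capital.

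Counts were deposited per exon bin, a non-overlapping piece of exon, and were summed here per gene. They totalled 63932395 to 107709534 per sample, and a floor of 3 counts came to between 0.0288 and 0.0590 CPM. CPM is a count scaled to the library total after TMM, the edgeR correction for library composition. Of the 2 libraries that stood apart, control replicate 5 had counts on 243970 bins and cdKO replicate 5 on 198569, against 254982 to 271591 in the other 8. Motor neuron markers were present in all samples, with Isl1 between 95.8 and 347 CPM. Of the targeted genes, summed over all their bins, Onecut1 was at 5.41, 2.25, 6.80, 9.93 and 4.82 CPM in controls and at 1.03, 2.02, 2.75, 3.43 and 4.29 in cdKO, groups that overlapped (log2 fold change -1.11 ± 0.46, SE; edgeR adjusted p = 0.94). Onecut2 was at 3.84, 0.987, 2.90, 6.88 and 9.40 CPM in controls and at 1.35, 4.86, 2.68, 6.50 and 19.2 in cdKO (0.52 ± 0.68), so its total counts did not set the cdKO libraries apart. The study reports lower Onecut1 RNA in cdKO, a stronger decrease than the estimate here. It attributes its Onecut2 reads to truncated transcripts that make no functional peptide. By its own test it lists Onecut1, Onecut3 and some other genes at an adjusted p under 0.05, which the edgeR test here did not reach for Onecut1 or Onecut3. By immunostaining it found all Onecut proteins lost from Isl1-positive motor neurons of cdKO embryos. Onecut3, which was not targeted, was at 0.330 to 0.682 CPM in controls and at 0 to 0.0381 in cdKO (-5.08 ± 0.76; edgeR adjusted p = 0.11). Nothing in the labels says that samples of a group came from separate embryos, so p-values measure only the spread between these samples. In bulk samples, fewer cells of a type and less RNA per cell cannot be told apart.

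**Figure D1:**
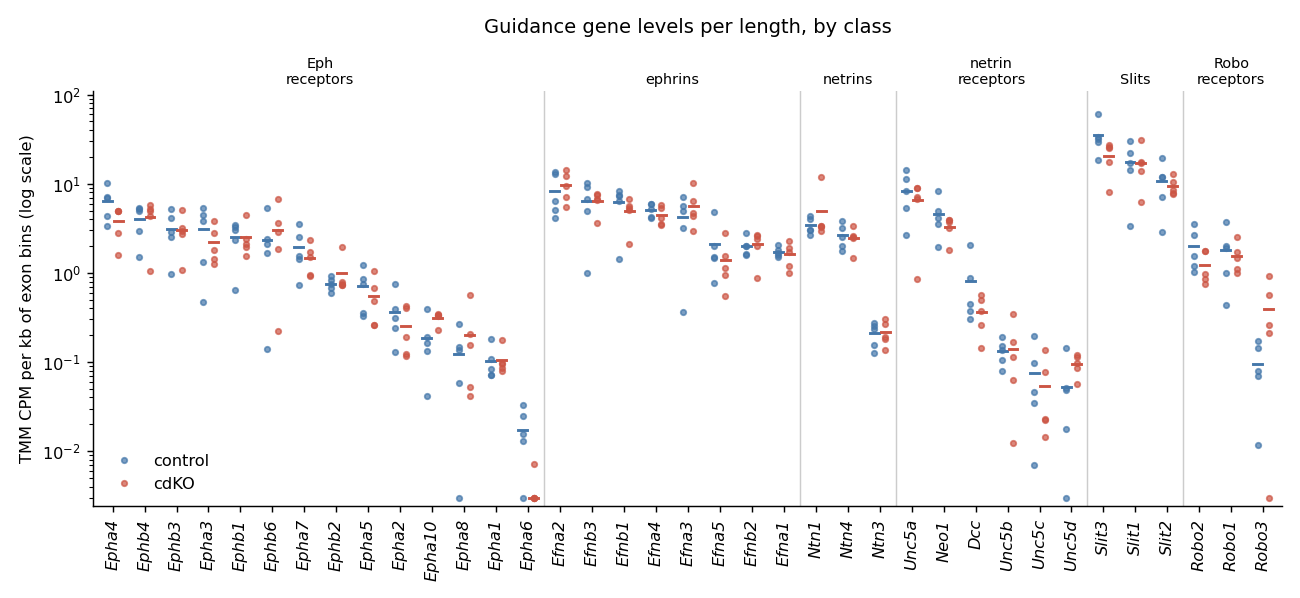
TMM CPM per kb of exon bins (log scale) for each of the 37 members by class, with a point for each of the 5 control and 5 cdKO samples and a line at the group mean; samples at 0 are drawn at the lower edge. The Slits are the highest class and Epha6, Unc5d, Unc5c, Robo3 and Epha1 have the 5 lowest control means.

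Compared per length over all bins of a gene, the Slits were the most abundant guidance genes of these cells. Slit3 was at 34.9 ± 15.7 CPM per kb of exon bins in controls (SD, n = 5), Slit1 at 17.4 ± 9.88 and Slit2 at 10.6 ± 6.15. In each of the 5 control samples Slit3 lay above Slit1 and Slit1 above Slit2. The lead of Slit3 lay in its exons 6 to 14, at 134.7 ± 64.9 CPM per kb in controls, while its exons 1 to 5 were at 2.66 ± 0.971 and its exons 15 to 36 at 18.1 ± 7.54. In Slit2 exons 1 to 5 were at 1.89 ± 1.48, exons 6 to 16 at 90.9 ± 52.5 and exons 17 to 38 at 34.5 ± 20.3. Next came the netrin receptor Unc5a at 8.40 ± 4.64, the ephrin Efna2 at 8.37 ± 4.41, and the receptor Epha4 at 6.43 ± 2.71. The ranges over control samples of neighbours in this order overlapped for each of the 36 pairs. Reads spanning several bins count once in each, so genes with many short exons read high on this scale. With each bin lengthened by the read length of 150 bases, Slit3 (17.3), Slit1 (8.04) and Slit2 (7.18) remained the first 3, and Efna2 (6.53) followed. The 25433 exon bases of Slit2 include annotated retained introns, and its mean over them lay below that of its full-length transcript from exon 6 on.

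At the other end Epha6 was at 0.0171 CPM per kb in controls, with 0 counts in 4 of the 10 samples and at most 18. Unc5d (0.0521), Unc5c (0.0760), Robo3 (0.0953) and Epha1 (0.103) were next. Summed by class per kb, the ephrins had a median of 39.0 over control samples, the Eph receptors 25.4, the netrin receptors 13.9, the netrins 5.34 and the Robo receptors 3.35, against 61.0 for the 3 Slits. The cdKO medians were 38.3, 23.4, 11.5, 6.22 and 2.77, with 47.5 for the Slits. Groups overlapped for each of the 6 sums, and no exact two-sided permutation p over all arrangements of the samples was under 0.397, before adjustment for the 6 sums.

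No guidance gene passed the test between cdKO and control. Of the 37 members 36 passed edgeR's filter on low counts, all but Epha6. Of these, 0 had an edgeR adjusted p under 0.05, as did 0 of the 17869 genes tested (0% of genes tested). At an unadjusted p under 0.05 the count was 0 of 36 in either direction, against 4.17% of genes tested that were higher in cdKO and 0.817% that were lower. The DESeq2 Wald test called 20 genes in all and none of the members at an adjusted p under 0.05. The study's list of selected genes, by its own test, also holds some at an adjusted p under 0.05, none of them a member. Members whose groups did not overlap numbered 0 of 37, while 0.185% of genes tested had every cdKO sample above every control sample and 0.224% had every one below. The member estimates spread from a log2 fold change of -1.15 to 2.02, with SEs of 0.29 to 1.001 and edgeR adjusted p-values of 0.94 upward. Their median was -0.07, beside -0.02 over all genes tested, and 21 of 36 estimates were below 0 (58.3%, against 51.8% of all genes tested). By system the medians were -0.02 for the 21 Eph and ephrin genes, -0.09 for the 9 netrin genes and -0.19 for the 6 Slit and Robo genes.

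**Figure D2:**
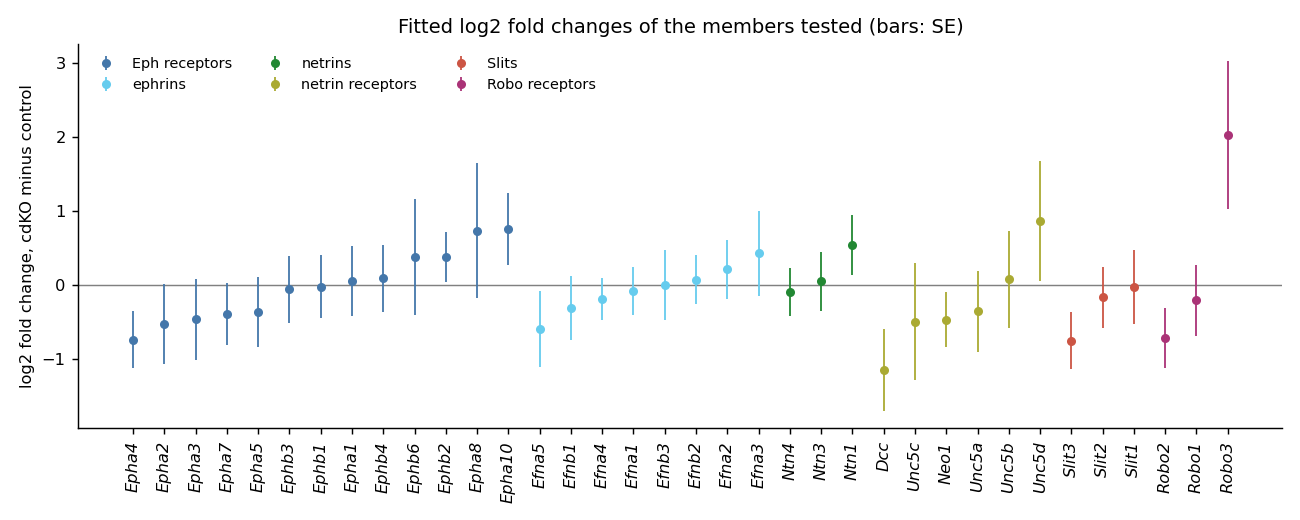
Fitted log2 fold change (cdKO minus control) of the 36 members tested, with SE bars, coloured by class. Dcc (-1.15), Slit3 (-0.75), Epha4 (-0.74) and Robo2 (-0.72) have the 4 lowest estimates and Robo3 (2.02) the highest; none had an edgeR adjusted p under 0.05.

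Members also moved with single libraries. Control replicate 5 was the lowest of the 10 samples in 14 of the 36 members tested (38.9%), against 16.3% of all genes tested. Control replicate 4 was the highest in 14 (38.9%), against 12.3% of all genes tested. Without control replicate 4 the median of the member estimates was 0.058, and the estimates of Neo1 and Epha3 were -0.17 and -0.20. In cdKO replicate 5 the counts of most members sat at the 3′ end. The median share of a member's counts downstream of the midpoint of its exon bases was 83.0% there, against 40.8% to 53.6% in the other 9 samples, and 22 of 36 members had over 75% there, against 2 to 6 in the others. The plot of 3′ shares by library shows this shift of coverage. Values for the members without both libraries, an alternative chosen after seeing the data, are given where they matter.

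**Figure D3:**
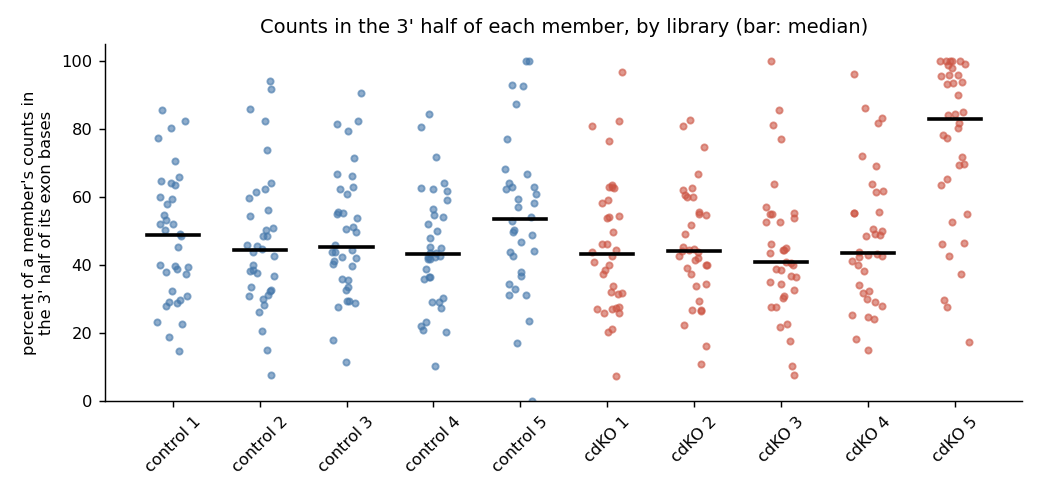
Percent of each tested member's counts that lie downstream of the midpoint of its exon bases, a point per member and library and a bar at the median (members with no count in a library are left out). The median is 83.0% in cdKO replicate 5 and 40.8% to 53.6% in the other 9 libraries.

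The Eph receptors were led by Epha4, the receptor that takes lateral motor axons dorsally in the limb. Epha4 (chromosome 1, 77367185 to 77515088, minus strand) was at 35.4, 27.1, 55.5, 83.0 and 57.8 CPM in control replicates 1 to 5 and at 12.7, 39.8, 22.7, 39.7 and 40.0 in cdKO. Of the controls 3 lay above every cdKO sample and 2 among them, so the groups overlapped. The log2 fold change was -0.74 ± 0.39 (SE; edgeR adjusted p = 0.94; exact permutation p = 0.143). In cdKO replicate 5 a single bin near the 3′ end held 68.8% of the Epha4 counts, against 15.1% to 32.9% in the other samples. Without both replicates numbered 5 the estimate was -0.82 ± 0.43.

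Epha3, a relative of Epha4 known from axial motor axons, varied more within groups than between them. It was at 25.2, 7.58, 21.4, 30.2 and 2.69 CPM in controls and at 8.19, 10.3, 15.8, 21.8 and 7.05 in cdKO, a log2 fold change of -0.46 ± 0.55. Control replicate 5 was the lowest of all 10 and control replicate 4 the highest. Epha5, Epha7 and Epha2, also receptors of the A class, had estimates of -0.37, -0.39 and -0.53 with SEs of 0.48, 0.42 and 0.54.

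Ephb1, which guides medial motor axons ventrally in the limb, was at 24.0, 21.1, 16.6, 23.2 and 4.52 CPM in controls and at 31.4, 14.9, 16.8, 10.9 and 13.8 in cdKO. The groups overlapped, with cdKO replicate 1 highest and control replicate 5 lowest, and a log2 fold change of -0.02 ± 0.43. Ephb4, second among the Eph receptors per kb of exon bins (3.996 in controls) but below Epha3 with each bin lengthened by 150 bases (2.06 against 2.12), is otherwise known from veins and was at 13.7, 25.0, 24.3, 22.8 and 6.92 CPM in controls and at 24.0, 20.2, 22.9, 26.7 and 4.86 in cdKO. Both replicates numbered 5 were its lowest samples. Endothelial markers were low throughout, with summed levels of 1.99 to 4.30 CPM in controls and 2.25 to 4.42 CPM in cdKO for the 9 genes, of which 5 stayed under 1 CPM in every sample. Cdh5, a defining endothelial gene, was between 0 and 0.138 CPM.

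Ephb2 was at 7.47 to 11.7 CPM in the 5 controls and at 9.18 to 9.88 in cdKO replicates 1 to 4, but at 24.4 in cdKO replicate 5, where a single bin, the next to last of its 28, held 56.3% of its counts, against 7.23% to 32.4% in the other samples. Ephb6, a receptor without kinase activity, was at 0.532 CPM in control replicate 5 and 0.846 in cdKO replicate 5 and at 6.25 to 25.3 in the other 8. Ephb3 spanned 6.15 to 32.8 CPM, lowest in both replicates numbered 5, with a log2 fold change of -0.06 ± 0.45. Epha10, Epha8 and Epha1 stayed under 3 CPM in every sample.

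Among those low receptors Epha10 had the largest positive estimate, 0.76 ± 0.49 (edgeR adjusted p = 0.97; exact permutation p = 0.0556). It was at 2.84, 1.39, 0.966, 1.19 and 0.296 CPM in controls and at 2.44, 1.65, 2.37, 2.43 and 2.48 in cdKO. All cdKO samples lay above 4 of the controls and below control replicate 1. Epha6, left out of the fit, was at 0 to 0.173 CPM in controls and at 0 to 0.0381 in cdKO. Its exact permutation p was 0.0476, unadjusted, and the only value under 0.05 among 37 members. The share of all genes under that limit was not counted, so a single such value is not a result about the members. Of the 5 cdKO values of Epha6, 4 were under the floor of 3 counts or at 0, along with control replicate 5.

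Ephrin estimates were split evenly, with 4 of 8 above 0 and 4 below. Efna2, an ephrin-A and the highest of the class, was at 28.7, 27.1, 10.9, 8.85 and 13.5 CPM in controls and at 14.97, 11.6, 26.2, 30.7 and 19.9 in cdKO. Each group held both low and high samples, and the log2 fold change was 0.21 ± 0.40. Efnb3, a midline ephrin that holds back corticospinal and spinal interneuron axons, was at 21.4, 29.0, 15.6, 32.5 and 3.13 CPM in controls and at 24.3, 21.2, 21.4, 23.7 and 11.5 in cdKO. Its group means per kb were nearly equal, 6.39 ± 3.66 and 6.41 ± 1.62 (SD, n = 5 each), with replicate 5 the lowest of each group.

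Efnb2, an ephrin-B that also binds EphA4, was at 13.8, 10.9, 11.04, 19.3 and 13.7 CPM in controls and at 6.08, 18.3, 13.7, 16.4 and 17.6 in cdKO (log2 fold change 0.07 ± 0.33). The range of the controls lay mostly inside that of the cdKO samples.

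Efna5, an ephrin-A of the limb and itself carried by motor axons, was, with Epha1, a member that had its highest value in control replicate 5. It was at 6.03, 3.10, 5.93, 8.17 and 19.4 CPM in controls and at 2.22, 4.53, 3.78, 6.31 and 11.3 in cdKO, so replicate 5 was the highest of each group. The log2 fold change was -0.60 ± 0.52, and it was -0.048 without control replicate 5 and -0.997 without cdKO replicate 5. Between 94.9% and 99.7% of the Efna5 counts in each sample sat on the last exon bin of 3135 bases, and the other 897 bases of its exons held 0.0271 to 0.990 CPM, with the highest in control replicate 5. Efna5 was thus read almost wholly from its last exon.

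Efnb1, Efna3, Efna4 and Efna1 made up the rest of the class. Efnb1 had a log2 fold change of -0.31 ± 0.43, Efna3 of 0.43 ± 0.57, Efna4 of -0.19 ± 0.29 and Efna1 of -0.08 ± 0.33. Efna1 and Efna4 were the steadiest members of the class, at 1.82 to 4.20 and 5.55 to 9.52 CPM over all 10 samples.

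Summed over whole genes, netrin ligands were low in comparison with the Slits. Exons 1 to 5 of Slit2 and Slit3 were not above Ntn1 in control means per kb (1.89 and 2.66 against 3.43). Ntn1, the floor plate attractant, was at 25.5, 18.8, 16.8, 27.6 and 18.9 CPM in controls and at 20.8, 18.6, 21.1, 20.9 and 74.6 in cdKO. The 9 samples other than cdKO replicate 5 lay close together, and that library alone set the positive estimate of 0.53 ± 0.41 (edgeR adjusted p = 0.997). In it the last bin of 3971 bases, at the 3′ end of Ntn1, held 73.8 CPM and all the other bins together 0.787 CPM, while in the other samples they held 12.9 to 18.7 and 2.59 to 10.2 CPM. Without cdKO replicate 5 the estimate was -0.08, and without both replicates numbered 5 it was -0.14 ± 0.22.

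Ntn4, a netrin of basement membranes, was at 14.2, 7.46, 9.48, 11.8 and 6.56 CPM in controls and at 9.23, 9.41, 9.70, 12.5 and 5.49 in cdKO. The groups overlapped, with replicate 5 lowest in each. Ntn3 was at 0.614 to 1.45 CPM over the 10 samples, from 33 to 126 counts. Its identifier does not head a unit of its own in the counts, and its bins were recovered by position from a unit joined with its neighbours.

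Of the netrin receptors, Dcc, the attractive receptor on chromosome 18, had the lowest estimate of all members, -1.15 ± 0.55 (edgeR adjusted p = 0.94; exact permutation p = 0.183). It was at 7.13, 3.65, 3.02, 16.5 and 2.45 CPM in controls and at 3.96, 1.17, 2.98, 4.53 and 2.09 in cdKO. Control replicates 1 and 4 lay above every cdKO sample and the other 3 controls among them. Without control replicate 4 the log2 fold change was -0.49, the weakest value under any setting tried.

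Neo1, the broadly used relative of Dcc, was at 36.0, 30.7, 43.3, 71.9 and 17.1 CPM in controls and at 32.8, 33.8, 27.4, 34.2 and 15.5 in cdKO, a log2 fold change of -0.47 ± 0.37. Its controls spread on both sides of cdKO replicates 1 to 4. Unc5a, a repulsive receptor and the highest netrin receptor per kb, was at 22.3, 59.9, 34.6, 47.1 and 11.1 CPM in controls and at 37.8, 37.1, 29.7, 28.5 and 3.56 in cdKO. Here too replicate 5 was the lowest of each group, and the log2 fold change was -0.36 ± 0.55.

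Unc5c, the Unc5 receptor known from motor axon exit, was scarce at e10.5. It was at 3.72, 0.661, 0.887, 1.87 and 0.133 CPM in controls and at 0.279, 0.428, 0.442, 1.47 and 2.58 in cdKO. The groups overlapped, with a log2 fold change of -0.49 ± 0.79. Without both replicates numbered 5 it was -1.46 ± 0.66, at an unadjusted edgeR p under 0.05 and with no adjusted p under 0.05. Unc5b was at 0.0715 to 2.03 CPM and Unc5d at 0 to 1.32 CPM over all samples.

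Slit ligands showed the clearest pattern, and it lay along the genes rather than between the groups. Slit3 (chromosome 11, 35121224 to 35708507, plus strand) was at 193, 202, 178, 371 and 113 CPM in controls and at 165, 153, 106, 155 and 49.6 in cdKO. Of the controls 4 lay above every cdKO sample and control replicate 5 among them. The log2 fold change was -0.75 ± 0.38 (edgeR adjusted p = 0.94; exact permutation p = 0.111). Without both replicates numbered 5 it was -0.72 ± 0.26, and Slit3 was then among the members at an unadjusted edgeR p under 0.05. Without control replicate 4, its highest sample, the estimate was -0.47 and no member was at that limit.

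Slit2 (chromosome 5, 47983138 to 48307733, plus strand) was at 303, 179, 305, 490 and 72.4 CPM in controls and at 193, 216, 264, 328 and 201 in cdKO. Every cdKO value lay inside the range of the controls (log2 fold change -0.17 ± 0.41). Slit1, the third ligand, was at 101.7, 132, 84.3, 178 and 19.7 CPM in controls and at 184, 82.0, 103, 101 and 36.7 in cdKO, with replicate 5 the lowest of each group and a log2 fold change of -0.02 ± 0.50.

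**Figure D4:**
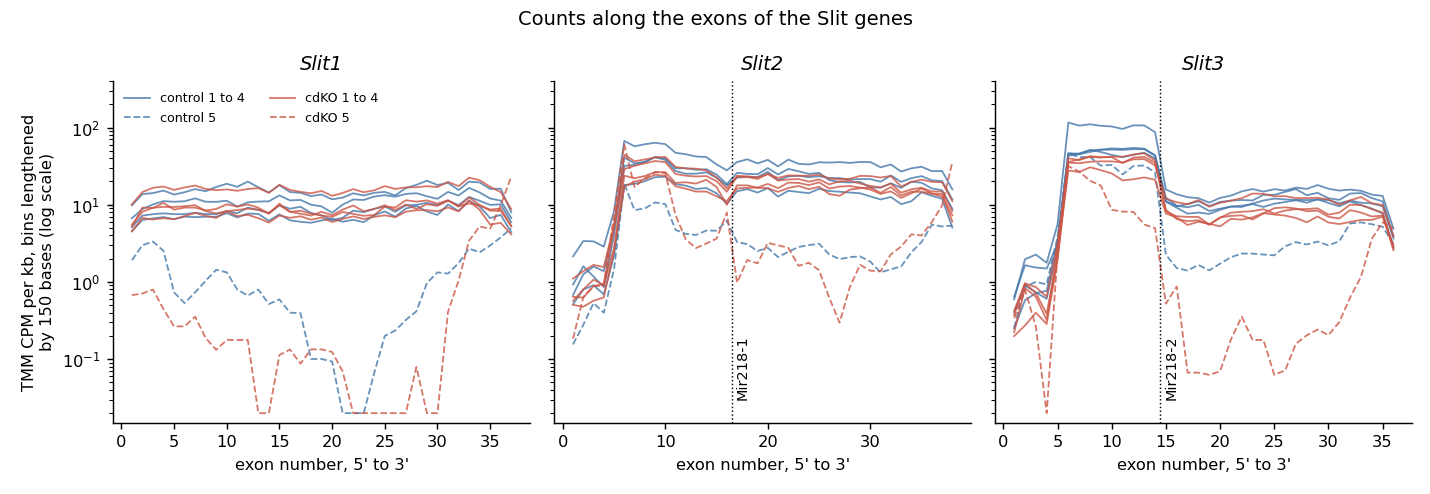
Counts along the exons of the full-length transcripts of Slit1, Slit2 and Slit3, as TMM CPM per kb with each bin lengthened by 150 bases (log scale), one line per sample and dashed lines for replicate 5; values below 0.02 are drawn at 0.02. Slit2 and Slit3 step up at exon 6 in all 10 samples, Slit3 steps down between exons 14 and 15, where the dotted line marks Mir218-2, and Slit1 has no such step.

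Along Slit2 and Slit3 the first 5 exons held few counts and the level stepped up at exon 6, the exon shown in capitals above. In Slit2-202, the full-length transcript of 38 exons, exons 1 to 5 were at 0.446 to 4.32 CPM per kb in controls and at 0.998 to 2.29 in cdKO. Exons 6 to 16, which end before Mir218-1, were at 25.3 to 165 and 53.5 to 108. Exons 17 to 38, beyond Mir218-1, were at 6.66 to 61.3 and 19.3 to 41.1. The middle stretch thus stood 38.1 to 61.8 times above the first 5 exons, in every one of the 10 samples, or 18.5 to 30.1 times with each bin lengthened by 150 bases.

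Slit3-201, with 36 exons, stepped up at the same exon number and down again. Exons 1 to 5 were at 1.88 to 4.17 CPM per kb in controls and 1.03 to 2.09 in cdKO, and exons 6 to 14 were at 81.5 to 248 and 34.2 to 98.0. The exons from 15 on, beyond Mir218-2, were at 6.06 to 26.2 and 2.59 to 20.8. Exons 6 to 14 stood 24.5 to 83.2 times above exons 1 to 5 and 4.13 to 13.4 times above exons 15 to 36 over the 10 samples. The stretch matches the annotated short transcript Slit3-202, which ends at 35612636, 4179 bases before Mir218-2. In Slit2 the short transcript Slit2-209 ends at 48219708, inside exon 14 and 4233 bases before Mir218-1. Exons 15 and 16 of the middle stretch of Slit2 lie beyond that end.

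The step fell on the start of the short transcripts in both genes. On Slit3 the 72 bases of exon 5 held 0.419 to 1.23 CPM, the 44 intronic bases before exon 6 held 4.20 to 18.4 CPM, and exon 6 held 6.17 to 25.8 CPM over the 10 samples. For Slit2 the same 3 pieces held 0.325 to 1.83, 2.41 to 10.7 and 3.81 to 14.9 CPM. In all 10 samples the intronic bases of both genes held more counts than exon 5. In Slit2 the intronic piece has 144 bases, against 72 in exon 5. A transcript spliced from exon 5 to exon 6 does not contain these intronic bases, while unspliced RNA does. Other introns were not read for comparison, and the source of the intronic counts was not tested. Slit1, whose counts were compared in the same way, had 1.12 to 1.33 times as many per kb on exons 6 to 16 as on exons 1 to 5 in the 8 samples other than replicates 5, and 0.354 and 0.293 times in control and cdKO replicate 5. The position of the step was noticed in these counts, so the segments are described and not tested. Mature miR-218 was not measured by these libraries.

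Read by group, all 3 segments of Slit3 had lower medians in cdKO than in control, 1.598 against 2.27 CPM per kb for exons 1 to 5, 85.8 against 118 for exons 6 to 14 and 13.7 against 19.0 for the rest, and the groups overlapped in each. The ratio of exons 6 to 14 over exons 15 to 36 had medians of 6.28 in controls and 6.57 in cdKO. In Slit2 the ratio of exons 6 to 16 over exons 17 to 38 had medians of 2.69 and 2.63, or 1.71 and 1.68 with each bin lengthened by 150 bases. The highest ratios of Slit3 were those of the replicates numbered 5, 13.4 in control and 13.2 in cdKO.

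Summed over whole genes, Robo receptors were present at lower levels per kb than their ligands. Exons 1 to 5 of Slit2 and Slit3, before the step, were at control means of 1.89 and 2.66 CPM per kb. Over whole genes Robo2 was at 2.00, Robo1 at 1.80 and Robo3 at 0.0953. Robo2 (log2 fold change -0.72 ± 0.40; edgeR adjusted p = 0.95; exact permutation p = 0.175) was at 19.7, 17.03, 44.3, 58.8 and 25.4 CPM in controls and at 12.2, 29.2, 16.2, 28.9 and 14.01 in cdKO. Control replicates 3 and 4 lay above every cdKO sample and the other 3 controls among them. Without control replicate 4 the estimate of Robo2 was -0.42. Robo1, which acts with Robo2 to keep motor axons off the floor plate, was at 15.3, 7.49, 14.3, 27.9 and 3.30 CPM in controls and at 8.35, 7.56, 11.04, 12.9 and 19.3 in cdKO. Its last bin, the 3′ end, held 71.0% of the counts in cdKO replicate 5 and 51.1% in control replicate 5, against 11.7% to 24.5% in the other 8 samples. The estimate was -0.20 ± 0.48 with all samples and -0.71 ± 0.37 without both replicates numbered 5.

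Robo3 had the highest estimate of all members, 2.02 ± 1.001 (edgeR adjusted p = 0.94; exact permutation p = 0.167), from few counts. It was at 0.973, 0.546, 0.0796, 1.19 and 0.473 CPM in controls and at 6.28, 0, 1.77, 1.43 and 3.82 in cdKO. Of the cdKO samples 4 lay above every control and the fifth was at 0, with at most 495 counts in any sample. It was named after its values were seen, as were Epha10 and the other members described outside the rule.

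**Figure D5:**
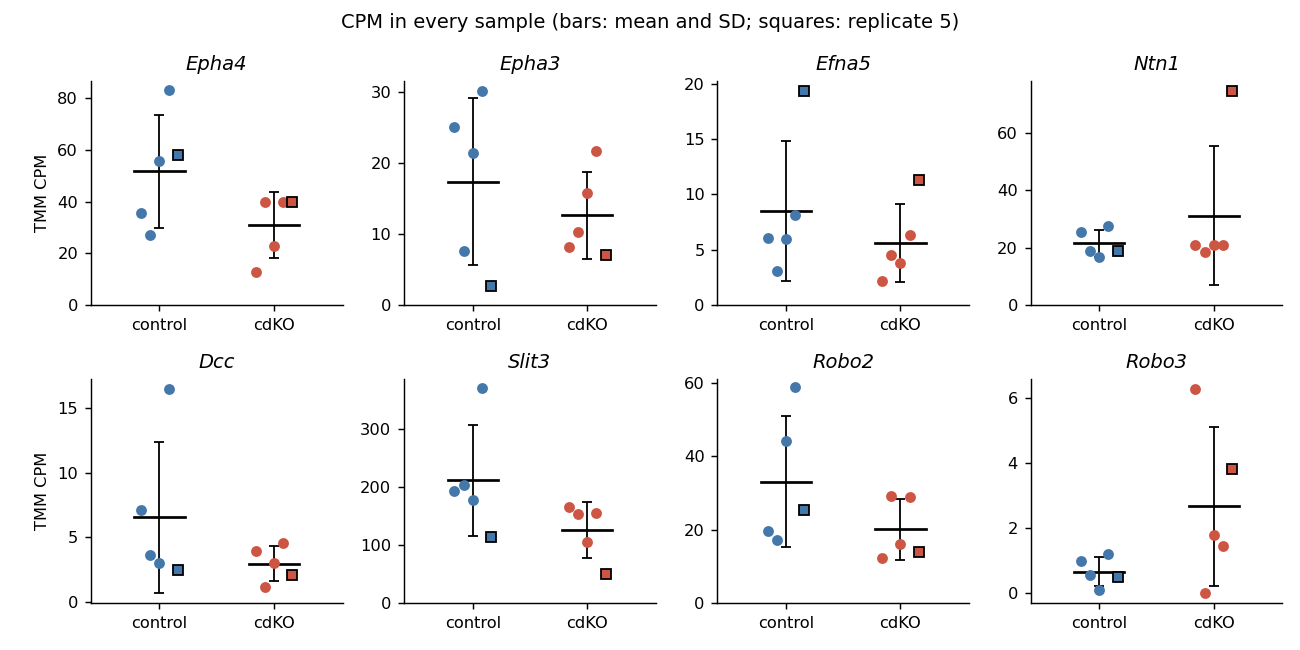
TMM CPM of 8 members in each control (blue) and cdKO (red) sample, with the mean and SD (n = 5) in black and replicate 5 drawn as a square. Groups overlap in each panel, and cdKO replicate 5 alone is high in Ntn1.

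Intracellular partners and effectors of the same systems were read from 3 fixed lists. Of 25 Eph and ephrin partners, 25 were tested and 1 was at an unadjusted p under 0.05, lower in cdKO. That gene was Kalrn, a guanine nucleotide exchange factor downstream of EphB receptors, at 6.21 to 12.1 CPM in controls and 4.38 to 8.91 in cdKO (log2 fold change -0.80 ± 0.32; edgeR adjusted p = 0.94). Of 20 netrin partners tested, 1 was lower in cdKO at that limit, Dock1, an activator of Rac that binds Dcc signalling complexes, at 9.34 to 25.0 CPM in controls and 4.09 to 11.6 in cdKO (-0.98 ± 0.37; edgeR adjusted p = 0.94). Both had groups that overlapped. Of 15 Slit and Robo partners tested, 0 were at an unadjusted p under 0.05 by edgeR. Over all genes tested 0.817% were lower and 4.17% higher in cdKO at that limit, so a single gene in a list of this size is not a result about the list. No partner had an adjusted p under 0.05.

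Markers of cell types that express these genes moved with libraries as well. Summed floor plate markers were at 96.0 to 365 CPM in controls and 71.3 to 287 in cdKO, led by Spon1, while Shh was between 2.47 and 9.31 CPM. The lowest control sum was that of replicate 5, where Spon1 was at 44.7 CPM. Foxa2 was highest in that library, at 46.4 CPM against 8.21 to 16.6 in the other 9. Summed motor neuron progenitor markers were highest in control replicate 5, at 2218 CPM, and ranged from 715 to 2218 in controls and from 832 to 1618 in cdKO. Hes5 made up 1939 CPM of the sum in control replicate 5. Pax6 was highest there too (85.5 CPM), while Olig1 had its lowest value of all samples (5.07 CPM). Olig2 was at 77.0 CPM there, below control replicate 3 (87.8 CPM). Control replicate 5 was also the lowest in Tubb3, a pan-neuronal tubulin, at 140 CPM against 432 to 1551 in the other 9. Of the 12 motor neuron markers Isl1 was lower at an unadjusted edgeR p under 0.05 (-0.83 ± 0.31; adjusted p = 0.94), and their sum was at 647 to 1073 CPM in controls and 560 to 1073 in cdKO. Summed V3 markers were at 24.0 to 99.8 CPM in controls, highest in replicate 5, and 21.7 to 39.2 in cdKO. Nkx2-9 made up 84.5 CPM of the sum in control replicate 5, while Sim1 (0.148 CPM) and Uncx (0.0443 CPM) had their lowest values of all samples there. Erythroid markers summed to 0.901 to 19.1 CPM in controls and 2.91 to 66.1 in cdKO, and lumbar Hox genes to 0.993 to 57.0 and 15.2 to 104, with cdKO replicate 5 highest in both. At the same limit 2 of 6 erythroid genes tested were higher in cdKO (Hba-a1 and Hba-a2). So were 2 of 11 mesenchyme genes (Col1a2 and Twist1) and 1 of 7 lumbar Hox genes (Hoxc11). Hoxc11 was at 0 and 0.0148 CPM in control replicates 1 and 5, at 0.108 to 0.171 in the other controls and at 0.0357 to 2.36 in cdKO. Of 7 V2 markers and of 5 neural crest and sensory markers tested, 0 were called in either direction. Over all genes tested 4.17% were higher and 0.817% lower in cdKO at that limit. V2 markers summed to 3.65 to 24.9 CPM in controls and 10.7 to 27.8 in cdKO, and neural crest and sensory markers to 45.4 to 64.9 and 21.5 to 59.2. Summed mesenchyme markers were at 17.2 to 119 CPM in controls and 30.3 to 135 in cdKO, and of the 8 macrophage markers 7 stayed under 1 CPM in every sample. The part of these differences between libraries in the values of the guidance genes was not tested.

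The RefSeq promoter windows, 250 bases before to 50 after a gene's start, were searched for the core of the Onecut binding site, ATTGAT on either strand (ATCAAT), since the deleted genes encode Onecut factors. Of 37 windows for 32 members, 2 held it, both of them overlapping windows of Epha7, against 7.54% of 32851 windows of all genes. The Epha7 window is printed as the one promoter among the members with these letters, which are in capitals (GRCm38.p6, plus strand).
Epha7, chr4:28812881-28813180: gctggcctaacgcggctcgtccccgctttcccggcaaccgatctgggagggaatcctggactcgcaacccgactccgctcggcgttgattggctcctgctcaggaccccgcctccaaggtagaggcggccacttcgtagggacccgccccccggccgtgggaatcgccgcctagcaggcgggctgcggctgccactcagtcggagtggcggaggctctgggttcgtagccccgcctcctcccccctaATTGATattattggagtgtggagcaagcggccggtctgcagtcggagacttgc

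Epha7 itself was at 7.28 to 35.0 CPM in controls and at 9.07 to 23.2 in cdKO. Such a match is a description of letters and not a binding site.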

How the data were processed

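The data were RNA-seq libraries of sorted YFP-positive cells from 5 control and 5 cdKO samples. The authors deposited whole-number counts per exon bin on GRCm38, not normalized. The submitters' processing notes name bcl2fastq 2.17, Trimmomatic 0.36, STAR 2.5.2b, Subread 1.5.2 and DESeq2, whose roles are not given in the sources used here. All 16 intervals present on both strands carried equal counts, so overlapping genes of opposite strands cannot be told apart, and short bins between longer ones showed that a read counts in each bin it overlaps.

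Bins were summed per gene. Bins of 1194 units joined from several genes were assigned by position with GENCODE M21, and 3804 bins (0.951% to 1.98% of counts per library) that could not be assigned were left out. After filterByExpr (minimum count 10) and TMM scaling, edgeR 4.0.16 (R 4.3.3) gave quasi-likelihood tests, adjusted by Benjamini-Hochberg over all 17869 genes. DESeq2 1.42.0 served as an alternative. Scripts were tested on simulated data with 200 genes changed 4-fold. At an adjusted p under 0.05 edgeR called 86 of them and DESeq2 139, beside 2 and 36 unchanged genes. The edgeR test thus missed many changes of that size. Exact two-sided permutation tests used log2(CPM + 0.5), with a smallest possible p of 0.00794. No libraries were duplicates. The floor of 3 counts covers counting error only.

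Values in every sample are given for the 2 highest members per kb of each class and 11 motor axon guidance genes listed by name, and for any member at an unadjusted p under 0.05 or without overlap. Members, lists and tests were chosen with earlier results of these data known. Normalization, filter, test, bins counted, replicate block and samples were varied.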

Additional observations from a re-analysis of the deposited data

Results flagged for a closer look

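Of 38 groups of 5 samples checked (19 members in both genotypes), 4 held a sample farther from the rest than Dixon's limit of 0.71 of the range allows. Chance alone passes this limit in about 1 in 20 groups. All 4 were cdKO groups. In cdKO replicate 1 Ephb1 was at 31.4 CPM, and the remaining cdKO samples lay between 10.9 and 16.8. The other 3 were in cdKO replicate 5, the library with counts toward the 3′ ends of genes. There Ntn1 was at 74.6 CPM against 18.6 to 21.1, Efnb3 at 11.5 against 21.2 to 24.3, and Unc5a at 3.56 against 28.5 to 37.8. The part of the 3′ coverage in these values was not tested.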

How the results depend on the processing

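No member had an adjusted p under 0.05 in any of the 18 alternatives. Over all genes the count was 1 with library size alone, 1 with no filter and 20 with the DESeq2 Wald test, and 0 to 4 with samples left out (4 without control replicate 5). Members at an unadjusted p under 0.05 numbered 2 of 36 with library size alone (Dcc, Epha4), beside 381 higher and 251 lower of all 17869 genes. With no filter they numbered 3 of 37, beside 1257 higher and 861 lower of 30209 genes. DESeq2 also gave 3 of 37, beside 956 and 468 of 29579, with Dcc, Epha6 and Robo3 in both. The highest bin gave 1 of 33 (Slit3), beside 530 and 133 of 16472. Leaving samples out gave 0 to 3 of 36. The 3 came without control replicate 2 (Dcc, Epha4, Robo2), beside 680 and 357 of 18241. With all samples, members without overlap numbered 0, and with samples left out 0 to 2. The share over all genes is given for all samples only, 0.185% above and 0.224% below. Groups with fewer samples separate more easily, so this share cannot be set beside the counts with samples left out. Those counts are not a result about the members. The replicate block gave 3 of 36 members at an unadjusted p under 0.05 (Dcc, Epha4, Slit3), beside 290 higher and 173 lower of 17869 genes. Same-numbered samples correlated at 0.094, -0.316, 0.165, 0.428 and 0.362, so the numbers do not pair all samples. Of 359 alternative fold changes 47 changed sign, and none of these had an adjusted p under 0.05. Log2 fold changes turned to 0.073 (Ephb1), 0.11 (Slit1) and 0.044 (Slit2) with the block, to -0.092 (Efnb2) and -0.12 (Efnb3) with library size, and to -0.0051 (Efnb3) with no filter. With the highest bin they were -0.11 (Ephb4), -0.12 (Efnb2), 0.029 (Ntn4), 0.21 (Unc5c), 0.020 (Slit1), 0.54 (Slit2) and 0.39 (Robo1). With samples left out they ran from -0.34 to 0.105 for Ephb1, -0.12 to 0.33 for Ephb4, -0.013 to 0.45 for Efna2, -0.036 to 0.26 for Efnb2, -0.27 to 0.20 for Efnb3, -0.14 to 0.67 for Ntn1, -0.26 to 0.070 for Ntn4, -1.46 to 0.22 for Unc5c, -0.35 to 0.23 for Slit1, -0.41 to 0.13 for Slit2 and -0.71 to 0.20 for Robo1. Without both replicates numbered 5, chosen after seeing the data, Efnb2 was at -0.03 and Efnb3 at -0.13. The median of the members ran from -0.26 to 0.06 with samples left out, and library size alone moved it to -0.22 and that of all genes to -0.15. The causes were not tested.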
